A study of Mus musculus with 12 samples.

Results

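Solute carrier (Slc) genes encode a large superfamily of membrane transporters, and 161 of them were followed here across the reproductive cycle of the mouse mammary gland in macrophages sorted from its ducts. The 161 genes were those whose symbol starts with Slc and a digit and whose level reached 5 CPM (read counts of a gene scaled to the total of the library) in 3 or more of 12 RNA-sequencing libraries. Of 27179 genes counted, 381 carried such a symbol, 169 of these reached the level, and 8 of the 169 (Slc11a1, Slc11a2, Slc40a1, Slc30a1, Slc39a1, Slc7a11, Slc2a1 and Slc16a3) were left out by name. The genes were thus chosen by their levels in the same libraries, and levels are given as a description. Of the 161 genes, 72 reached 5 CPM in all 12 libraries and 6 did so in exactly 3. The genes just inside were Slc25a35, with 5.14 CPM in its third-highest library, and Slc5a8, with 5.53 CPM, and those just outside were Slc29a2, with 4.82 CPM, and Slc6a8, with 4.13 CPM. Among the 212 Slc genes under the level, 108 had no count in any library.

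The cells came from C57BL/6 mice at 4 stages, with 3 libraries labelled as biological replicates at each: virgin mice, mice at day 16.5 of pregnancy, lactating mice, and mice 1 month after weaning. The labels and protocols at hand do not give the sort gate, the day of lactation, the age of the mice or whether animals were pooled. Setting each stage against the others asks which transporter transcripts differ between ductal macrophages of these stages.

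As background, solute carriers move their substrates down or against gradients by facilitated diffusion, exchange or cotransport with ions, without hydrolysing ATP themselves. In macrophages they bring in glutamine, leucine and arginine, supply mitochondria with ADP, phosphate and metabolites, and return amino acids, peptides, nucleosides, heme and metals from the phagolysosome to the cytosol after engulfed material has been digested. In the lactating gland the secretory epithelium draws heavily on amino acids and glucose, and ductal macrophages lie against that epithelium.

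Library totals ran from 6926273 to 21204704 counts, and the share of counts held by the 161 genes was 0.741 ± 0.0417% for virgin, 0.809 ± 0.0325% for pregnant, 0.683 ± 0.0144% for lactating and 0.764 ± 0.0446% for post-weaning libraries (SD, n = 3 each). All 12 macrophage markers were detected in every library, and their summed share was 1.92 to 2.01% for virgin, 4.27 to 4.42% for pregnant, 1.25 to 3.09% for lactating and 2.49 to 2.79% for post-weaning libraries. Among them Lyz2, the macrophage lysozyme gene, held 2.77 to 2.85% of counts in pregnant, against 0.333 to 0.545% in virgin libraries (log2 fold change 2.74 ± 0.45 SE, edgeR adjusted p = 0.0152), and the 11 other markers held 1.44 to 1.58% in pregnant, against 1.46 to 1.63% in virgin libraries. The 10 milk-secreting epithelium markers, of which 5 to 8 were at 0 in virgin libraries, summed to at most 0.0175% of counts in virgin libraries, 0.169 to 1.44% in pregnant, 0.135 to 6.79% in lactating and 0.0798 to 0.27% in post-weaning libraries. Lactating replicate 3 held the highest milk share, the lowest macrophage share and the lowest count of genes detected, 10178 against 11295 to 13790 elsewhere, and 34 of the 161 Slc genes were at 0 there, against 0 to 19 in the other libraries. Calls and class medians in lactating libraries, and most differences there that did not pass, are therefore given with and without that library. The 11 luminal and basal epithelium markers ran from 0.0129 to 0.105% of counts over all libraries, and Krt19 and Krt7 among them were at 0 in every lactating library. Fibroblast, endothelial, adipocyte, lymphocyte and neutrophil marker lists each stayed at or under 0.0389% of counts in every library, and the part of other cells in any Slc value was not tested. In these bulk libraries, fewer cells of a type and less RNA per cell cannot be told apart.

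Levels differed widely between Slc genes. Per kilobase of the deposited gene length, Slc25a5 stood first, with a mean of 620 CPM per kb over the 12 libraries, 21% of the sum over the 161 genes. It encodes the main ADP/ATP exchanger of the inner mitochondrial membrane in proliferating and non-muscle cells. Slc3a2, the CD98 heavy chain that carries several amino acid exchangers to the cell surface, came next with 226 CPM per kb. The mitochondrial phosphate carrier gene Slc25a3 followed with 126 CPM per kb and Slc25a4, another ADP/ATP exchanger gene, with 119 CPM per kb. The first 10 genes held 48% of the sum, the median gene had 6.04 CPM per kb and the last, Slc5a8, 0.463 CPM per kb.

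**Figure D1:**
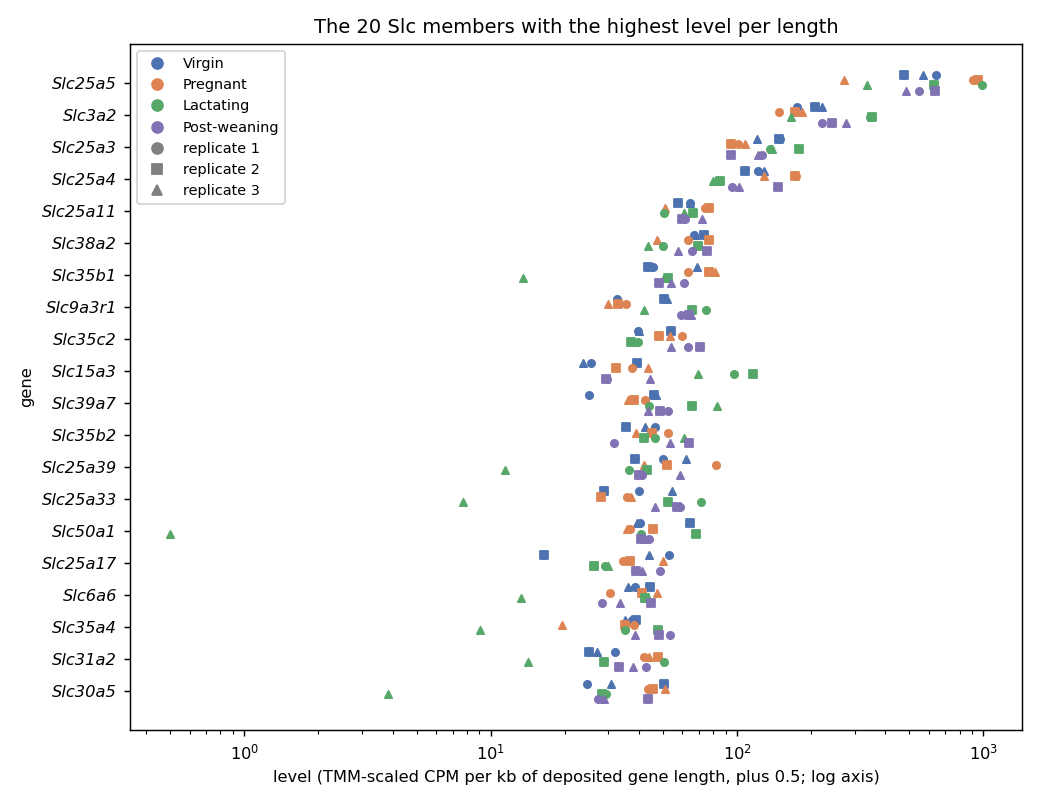
Level per kilobase of the 20 Slc genes with the highest mean over the 12 libraries, on a log axis after adding 0.5. Colours mark the stages and shapes the replicates. Slc25a5 and Slc3a2 lead, and Slc50a1 is at 0 in Lactating replicate 3, the lowest point of the plot.

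The promoters of 3 of these genes, from 250 bases before to 50 bases after the start of the gene in RefSeq (GRCm38.p6, the assembly behind mm10), are shown because Slc25a5 and Slc3a2 had the highest levels and Slc25a4 passed a test below. They are written 5′ to 3′ on the strand of the gene, and capitals mark matches, on either strand, to the CCAAT box (CCAAT) or to the core GAGGAA of sites of PU.1-like ETS factors. Slc25a5 lies at chrX:36795347-36795646 (plus strand), Slc3a2 at chr19:8713848-8714147 (minus strand) and Slc25a4 at chr8:46211013-46211312 (minus strand).
Slc25a5: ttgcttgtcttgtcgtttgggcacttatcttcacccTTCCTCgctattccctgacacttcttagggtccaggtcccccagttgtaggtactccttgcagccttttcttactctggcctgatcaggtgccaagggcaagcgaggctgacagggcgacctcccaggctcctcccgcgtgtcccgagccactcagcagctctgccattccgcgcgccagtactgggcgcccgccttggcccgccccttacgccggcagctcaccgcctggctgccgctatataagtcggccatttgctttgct
Slc3a2: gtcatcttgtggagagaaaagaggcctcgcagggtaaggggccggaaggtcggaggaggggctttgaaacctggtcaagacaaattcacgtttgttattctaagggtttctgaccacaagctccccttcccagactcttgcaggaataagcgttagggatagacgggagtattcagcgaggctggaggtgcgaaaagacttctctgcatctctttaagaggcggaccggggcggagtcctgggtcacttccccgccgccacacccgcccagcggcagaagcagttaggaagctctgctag
Slc25a4: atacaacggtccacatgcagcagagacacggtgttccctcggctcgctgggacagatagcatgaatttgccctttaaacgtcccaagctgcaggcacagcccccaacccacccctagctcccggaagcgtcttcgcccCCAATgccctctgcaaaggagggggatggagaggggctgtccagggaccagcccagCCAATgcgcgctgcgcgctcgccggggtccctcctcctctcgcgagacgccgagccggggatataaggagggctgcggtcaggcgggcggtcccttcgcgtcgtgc
The Slc25a4 window held CCAAT at positions -112 and -56 relative to the start, the Slc25a5 window held GAGGAA at -214 on the opposite strand, and the Slc3a2 window held none of the motifs searched. Promoter windows were at hand for 121 of the 161 genes, 161 windows in all. CACGTG, the E-box read by MYC and TFEB family factors, was in 16.1% of those windows, against 7.15% of the 32851 windows of all genes. TATAAA was in 4.97%, against 13.6% of all windows. CCAAT was in 29.8% against 37.4%, GAGGAA in 19.9% against 28.3%, AAGGTCA, an element bound by orphan nuclear receptors, in 1.24% against 4.72%, and TGATGNAA, the core of the C/EBP-ATF site, in 3.11% against 3.97%. The windows of all genes were not filtered by level, while the 161 genes were chosen by level, and the part of this in the shares was not tested. Both strands were searched, windows of 1 gene can overlap, and a match is a description of letters only.

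Tests used edgeR's quasi-likelihood model with 1 mean per stage over all 12 libraries and Benjamini-Hochberg adjustment over the 12672 genes tested, all 161 Slc genes among them, with adjusted p under 0.05 taken as a change. In all, 4 Slc genes passed in at least 1 pairwise comparison: the amino acid transporter genes Slc38a1 and Slc1a5, the peptide transporter gene Slc15a3 and the ADP/ATP exchanger gene Slc25a4. In pregnant against virgin libraries 1 of 161 passed (0.621%), against 1.32% of all genes tested, and it was higher (0.442% of all genes were called higher). In lactating against virgin libraries 2 passed (1.24%), both higher, against 1.94% of all genes (1.04% higher). In post-weaning against virgin libraries edgeR called 0 Slc genes and 0% of all genes, while 12 Slc genes and 765 of all genes had an unadjusted p under 0.05, and DESeq2 called 2 Slc genes (Slc1a3 and Slc5a8) and 125 genes in all (0.986%). Slc5a8 reached the 5 CPM of the rule only in post-weaning libraries, so its direction was set by that choice. In the other 5 comparisons DESeq2 called 3 Slc genes in pregnant against virgin (5.18% of all genes), 13 in lactating against virgin (9.26%), 17 in lactating against pregnant (11.6%), 12 in post-weaning against lactating (7.25%) and 4 in post-weaning against pregnant libraries (3.96%).

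In lactating against pregnant libraries 3 Slc genes passed (1.86%), 2 higher and 1 lower, against 3.85% of all genes (2.65% higher, 1.2% lower). In post-weaning against lactating libraries 3 passed (1.86%), all lower, against 0.923% of all genes (0.458% higher, 0.466% lower). In post-weaning against pregnant libraries 1 passed (0.621%), lower, against 0.718% of all genes (0.142% lower). The test of any difference between stages called Slc38a1, Slc15a3 and Slc1a5, against 3.35% of all genes. The shares called were thus near or under those of all genes, except in post-weaning against lactating libraries. An unadjusted p under 0.05 was found for 16, 26, 12, 32, 20 and 8 Slc genes in the 6 comparisons in that order (9.94, 16.2, 7.45, 19.9, 12.4 and 4.97%), against 12.2, 16.8, 6.04, 18.6, 15.1 and 10.2% of all genes. The comparisons share libraries, so they are not independent of each other.

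Values are scaled by TMM, which gave Lactating replicates 1 and 2 factors of 0.791 and 0.792 and the other libraries factors of at least 1. Under scaling by total count alone the median log2 difference of all genes tested moved by -0.23 in lactating against virgin, by -0.29 in lactating against pregnant and by 0.21 in post-weaning against lactating libraries. Under that scaling Slc15a3 missed the threshold in lactating against pregnant (adjusted p = 0.0549) and post-weaning against lactating libraries (0.0519), and so did Slc1a5 (0.0565 and 0.0587), with no change of direction.

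**Figure D2:**
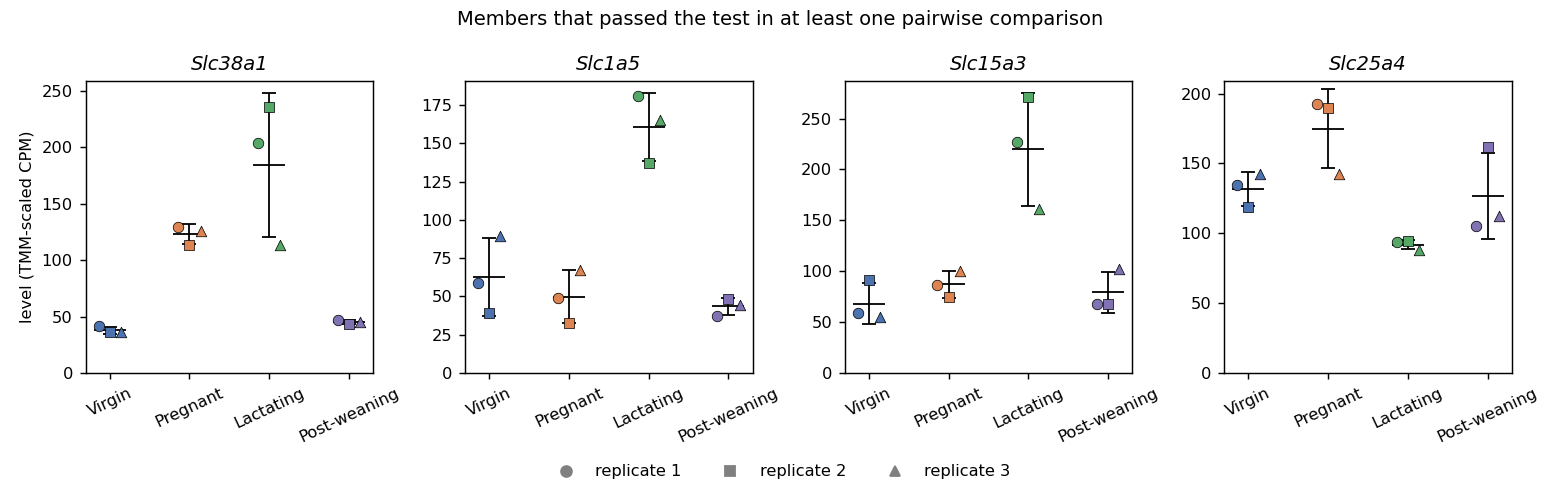
Level of the 4 Slc genes that passed the edgeR test in a pairwise comparison, in TMM-scaled CPM, by stage. Points are libraries, lines and bars the mean and SD of 3. Slc1a5 and Slc15a3 have all 3 lactating libraries above every other library, and Slc25a4 has all 3 below every other.

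Slc38a1 encodes SNAT1, a sodium-coupled importer of glutamine and other small neutral amino acids (chr15:96571418-96643438). Its level was 41.4, 36.4 and 36 CPM in virgin libraries, 130, 113 and 126 CPM in pregnant libraries, 204, 236 and 113 CPM in lactating libraries, and 47.1, 43.5 and 45.6 CPM in post-weaning libraries. All pregnant and lactating libraries lay above all virgin and post-weaning libraries. The gene rose in pregnant against virgin libraries (log2 fold change 1.70 ± 0.26 SE, edgeR adjusted p = 0.0102) and in lactating against virgin libraries (2.28 ± 0.26, adjusted p = 0.0037). It fell in post-weaning against lactating libraries (-2.02 ± 0.26, adjusted p = 0.00572) and in post-weaning against pregnant libraries (-1.44 ± 0.26, adjusted p = 0.03). Without Lactating replicate 3, the lactating library with the lowest Slc38a1 level and the highest milk share, the changes were 2.49 ± 0.19 against virgin (adjusted p = 9.16e-05) and, in post-weaning against lactating libraries, -2.21 ± 0.19 (adjusted p = 0.000379), and Slc38a1 then also rose in lactating against pregnant libraries (0.78 ± 0.19, adjusted p = 0.0358).

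The 2 lactation calls of Slc38a1 held when each of the 12 libraries was left out in turn. Both were lost in fits of only the 6 libraries compared, at 2.28 ± 0.33 in lactating against virgin (adjusted p = 0.148) and -1.99 ± 0.31 in post-weaning against lactating libraries (adjusted p = 0.122). The rise in pregnancy missed the threshold without Virgin replicate 2 (adjusted p = 0.0643) or Virgin replicate 3 (0.054). The fall in post-weaning against pregnant libraries missed it without Virgin replicate 3 (0.0523), Pregnant replicates 1 (0.107), 2 (0.132) or 3 (0.119), or Post-weaning replicates 1 (0.132), 2 (0.154) or 3 (0.148). A predicted gene, Gm32457, overlaps Slc38a1, and the strand setting of the counting is not given, so reads of the overlapping stretch cannot be told apart.

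Slc1a5 encodes ASCT2, an exchanger of glutamine and other neutral amino acids (chr7:16781334-16798274). It had 58.5, 39.1 and 89.7 CPM in virgin libraries, 49.3, 32.8 and 67.5 CPM in pregnant libraries, 181, 137 and 165 CPM in lactating libraries, and 37.5, 48.7 and 44.6 CPM in post-weaning libraries. The lactating libraries lay above all 9 others. Slc1a5 rose in lactating against pregnant libraries (log2 fold change 1.69 ± 0.34 SE, edgeR adjusted p = 0.0175) and fell in post-weaning against lactating libraries (-1.88 ± 0.34, adjusted p = 0.0297). Against virgin libraries the lactating difference was 1.37 ± 0.34 (adjusted p = 0.0696). The rise missed the threshold without Pregnant replicates 1 (0.0793) or 2 (0.0914) or Lactating replicate 1 (0.0525). The fall missed it without Virgin replicate 1 (0.0518), Pregnant replicate 1 (0.0572), Lactating replicate 1 (0.0584), or Post-weaning replicates 1 (0.13), 2 (0.132) or 3 (0.134). Without Lactating replicate 3 both calls held, at 1.61 ± 0.37 and -1.80 ± 0.37, and in fits of only the 6 libraries compared both were lost (adjusted p = 0.0627 and 0.0832).

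The 23 amino acid transporter genes summed to 1692 ± 124 CPM in virgin, 1840 ± 60 CPM in pregnant, 2343 ± 569 CPM in lactating and 1940 ± 179 CPM in post-weaning libraries (SD, n = 3 each). The lactating sums were 2607 and 2732 CPM in replicates 1 and 2 and 1690 CPM in replicate 3. Slc3a2, the CD98 heavy chain, held a large part of these sums and of the gap to replicate 3. In pregnant against virgin libraries the fitted difference was positive for 18 of the 23 genes, with a median log2 fold change of 0.63 against 0.03 for all genes tested. For 10 of the 23 the pregnant libraries all lay above the virgin ones, and for 0 all below, while 13.6% of all genes lay above without overlap and 10.7% below. Only Slc38a1 of these passed the test in that comparison. In lactating against virgin libraries the median was 0.88, against -0.06 for all genes tested, and without Lactating replicate 3 it was 0.83, against -0.15. The median in lactating against pregnant libraries was -0.21, against -0.14 for all genes, and without Lactating replicate 3 it turned to 0.0048, against -0.25.

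Slc3a2, the shared heavy chain, had 518, 614 and 652 CPM in virgin, 436, 509 and 541 CPM in pregnant, 1021, 1045 and 486 CPM in lactating and 655, 718 and 819 CPM in post-weaning libraries. Replicates 1 and 2 of lactation were the highest of all 12 libraries and replicate 3 was lower than all but Pregnant replicate 1. With all libraries the differences did not pass (0.52 ± 0.27 in lactating against virgin, edgeR adjusted p = 0.351, and 0.78 ± 0.27 in lactating against pregnant, adjusted p = 0.142). Without Lactating replicate 3 both passed, at 0.75 ± 0.16 (adjusted p = 0.0301) and 1.01 ± 0.16 (adjusted p = 0.00381). The light chains that pair with it differed in pattern. Slc7a5 (LAT1, an exchanger of leucine and other large neutral amino acids) had 14.1, 13.3 and 11.9 CPM in virgin, 46.9, 40.2 and 27.3 CPM in pregnant, 49, 38.7 and 1.05 CPM in lactating and 5.77, 14.2 and 32.6 CPM in post-weaning libraries. Its pregnant libraries lay above the virgin ones, but the spread was wide and the difference of 1.54 ± 0.95 did not pass (adjusted p = 0.615). Slc7a7 (y+LAT1, which exports cationic amino acids) averaged 36.2 ± 2.98 CPM in virgin, 56.1 ± 17.2 CPM in pregnant, 35 ± 3.96 CPM in lactating and 63.4 ± 7.42 CPM in post-weaning libraries. Slc7a8 (LAT2) stayed between 63 and 142 CPM in all libraries.

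**Figure D3:**
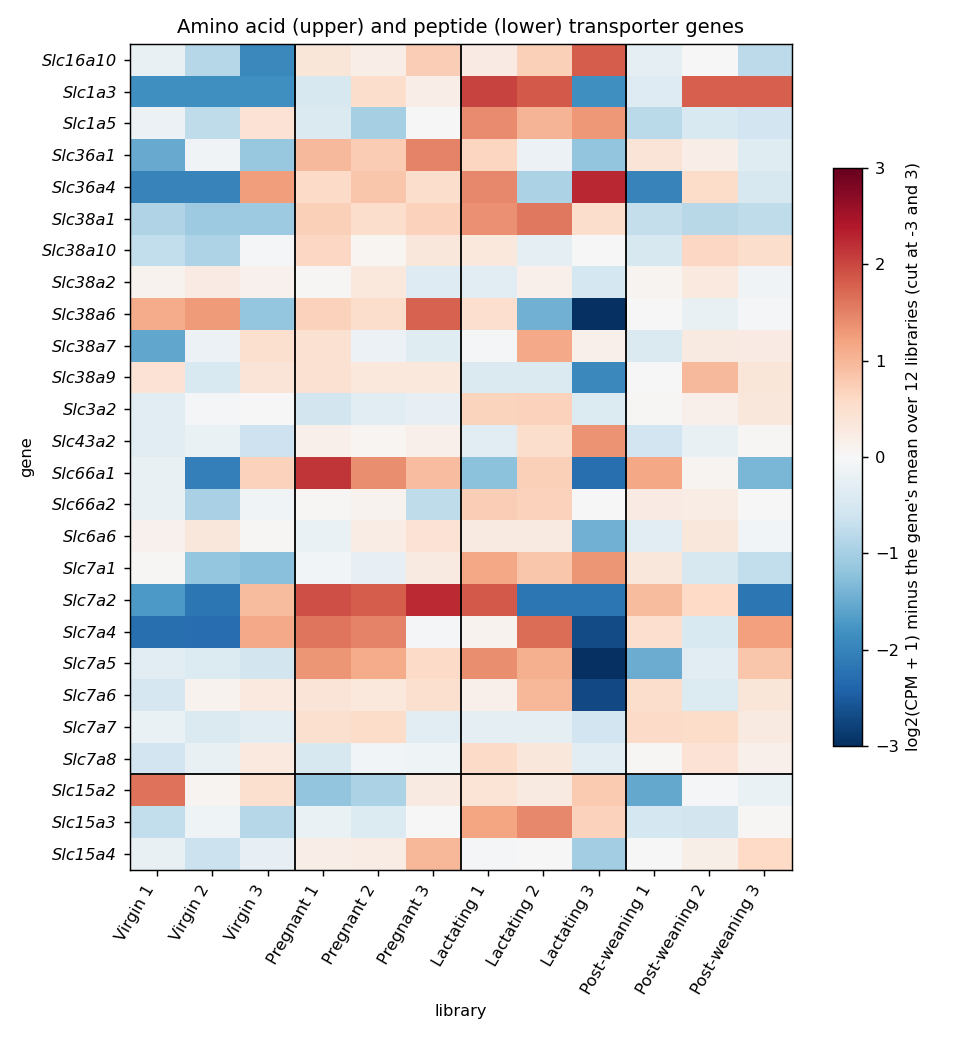
Level of the 23 amino acid and 3 peptide transporter genes in each library, as log2(CPM + 1) minus the mean of the gene over the 12 libraries; the colour scale is cut at -3 and 3. Slc38a1 is high in the pregnant and lactating columns, Slc1a5 and Slc15a3 in the lactating columns, and Slc7a5 and Slc7a6 are lowest in Lactating replicate 3.

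Among importers at the cell surface, Slc38a2 (SNAT2) averaged 319 ± 16.7 CPM in virgin, 288 ± 68.2 CPM in pregnant, 249 ± 62.9 CPM in lactating and 304 ± 41.4 CPM in post-weaning libraries, and no comparison passed. The taurine transporter gene Slc6a6 averaged 242 ± 26.3 CPM in virgin, 241 ± 52.3 CPM in pregnant, 199 ± 104 CPM in lactating and 216 ± 51.4 CPM in post-weaning libraries. Slc43a2 (LAT4, for large neutral amino acids) had 74.2, 136 and 243 CPM in lactating libraries, against 61.3 to 82.7 CPM in virgin libraries (1.04 ± 0.36, adjusted p = 0.172), and passed edgeR's test only without Lactating replicate 1 (1.34 ± 0.29, adjusted p = 0.0435). That is its lowest lactating library, so the pass follows from the library left out. The difference was 0.47 ± 0.28 without Lactating replicate 3. Slc16a10 (TAT1, for aromatic amino acids) had 20.3, 28.5 and 61.6 CPM in lactating libraries, against 3.65 to 14.5 CPM in virgin libraries (2.04 ± 0.59, adjusted p = 0.113, and 1.39 ± 0.55 without Lactating replicate 3). The arginine importer gene Slc7a1 had 22.2, 17.4 and 24.9 CPM in lactating libraries, above all 9 others, which ran from 3.36 to 12 CPM. Its largest difference, 1.96 ± 0.65 in lactating against virgin libraries, did not pass (adjusted p = 0.158, and 1.80 ± 0.68 without Lactating replicate 3). Slc7a2, the other arginine importer gene, which macrophages are known to induce on activation, had 16.1, 14.7 and 20.2 CPM in pregnant libraries, against 0.344, 0 and 7.68 CPM in virgin libraries (2.66 ± 2.33, adjusted p = 0.81). The glutamate transporter gene Slc1a3 had 13.5, 11.7 and 0 CPM in lactating libraries and was at 0 in every virgin library. Its pooled lactating level was at least 73.2-fold higher, with a floor of 3 counts over the virgin stage. With edgeR it passed only without Lactating replicate 3 (adjusted p = 0.00971, and 0.0192 in pregnant against virgin libraries).

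Among the amino acid carriers of the lysosomal membrane, Slc38a9, which senses lysosomal arginine for the kinase complex mTORC1, averaged 28.3 ± 8.97 CPM in virgin, 32.2 ± 1.8 CPM in pregnant, 14.1 ± 7.18 CPM in lactating and 35.6 ± 12.6 CPM in post-weaning libraries. Its lactating libraries lay below all pregnant ones (-1.20 ± 0.48, adjusted p = 0.209, and -0.87 ± 0.40 without Lactating replicate 3). Slc36a1, a proton-coupled exporter of small amino acids from lysosomes, had 14.1, 12.2 and 20.6 CPM in pregnant libraries, above the 1.72 to 6.18 CPM of virgin libraries (2.17 ± 0.83, adjusted p = 0.317). Slc66a1, the lysosomal exporter of cationic amino acids, had 20.2, 11.7 and 8.07 CPM in pregnant libraries, against 3.1, 0.158 and 6.8 CPM in virgin libraries.

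Slc15a3 encodes a peptide and histidine transporter of the lysosome and endosome that is found mainly in immune cells and carries bacterial muramyl dipeptide (chr19:10842544-10857915). It had 58.8, 91.1 and 54.5 CPM in virgin libraries, 86.7, 74.5 and 101 CPM in pregnant libraries, 227, 272 and 161 CPM in lactating libraries, and 68.1, 67.5 and 102 CPM in post-weaning libraries. The lactating libraries lay above all 9 others. It rose in lactating against virgin libraries (log2 fold change 1.69 ± 0.29 SE, edgeR adjusted p = 0.0158) and in lactating against pregnant libraries (1.33 ± 0.29, adjusted p = 0.0249), and fell in post-weaning against lactating libraries (-1.47 ± 0.29, adjusted p = 0.0396). Without Lactating replicate 3 the changes were 1.82 ± 0.28 (adjusted p = 0.00541), 1.46 ± 0.28 (0.0106) and -1.59 ± 0.28 (0.0168).

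The Slc15a3 calls depended on other libraries. The rise against virgin libraries missed the threshold without Virgin replicates 1 (0.0711) or 3 (0.0615). The rise against pregnant libraries missed it without Pregnant replicates 1 (0.102), 2 (0.134) or 3 (0.0607) or Lactating replicates 1 (0.0672) or 2 (0.0952). In fits of only the 6 libraries compared all 3 calls were lost (adjusted p = 0.208 against virgin, 0.0711 against pregnant and 0.18 in post-weaning against lactating libraries). The fall after weaning missed it without Virgin replicates 1 (0.063) or 3 (0.0516), any pregnant replicate (0.0605 to 0.0764), Lactating replicates 1 (0.0759) or 2 (0.11), or any post-weaning replicate (0.0959 to 0.197). Tmem132a overlaps Slc15a3, so reads of the overlap cannot be told apart. The related Slc15a4, which endosomal Toll-like receptor signalling needs, averaged 29 ± 4.65 CPM in virgin, 54 ± 18.3 CPM in pregnant, 30.6 ± 11.2 CPM in lactating and 45.7 ± 10.2 CPM in post-weaning libraries, with no call. Slc15a2, the plasma membrane peptide transporter PEPT2, had 130, 44.1 and 58.8 CPM in virgin libraries, 17.8, 21.2 and 50.5 CPM in pregnant libraries, and 55.8, 50.4 and 72.7 CPM in lactating libraries. Together the 3 peptide transporter genes reached 251 to 360 CPM in lactating libraries, above the 119 to 226 CPM of all others. That order rests on Slc15a3. The class median was 0.07 in lactating against virgin and 1.00 in lactating against pregnant libraries, against -0.06 and -0.14 for all genes tested.

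The 32 mitochondrial carrier genes (the Slc25 family) summed to 1911 ± 176 CPM in virgin, 2116 ± 554 CPM in pregnant, 1922 ± 448 CPM in lactating and 1917 ± 138 CPM in post-weaning libraries. Slc25a4 (ANT1, chr8:46207168-46211062), one of the exchangers of cytosolic ADP for mitochondrial ATP, had 135, 119 and 142 CPM in virgin libraries, 192, 190 and 142 CPM in pregnant libraries, 93.4, 94.3 and 88.1 CPM in lactating libraries, and 106, 162 and 112 CPM in post-weaning libraries. The lactating libraries lay below all 9 others and close to each other. Slc25a4 fell in lactating against pregnant libraries (log2 fold change -0.93 ± 0.22 SE, edgeR adjusted p = 0.0355), and at -0.95 ± 0.24 (adjusted p = 0.0406) without Lactating replicate 3. The call missed the threshold without Virgin replicate 3 (0.0535), Pregnant replicates 1 (0.142) or 2 (0.159), Lactating replicates 1 (0.0572) or 2 (0.0684), or Post-weaning replicate 3 (0.0564), and in the fit of only the 6 libraries compared (0.107). Against virgin libraries the lactating difference was -0.52 ± 0.22 (adjusted p = 0.254).

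The more abundant exchanger gene Slc25a5 (ANT2) had 798, 590 and 705 CPM in virgin, 1124, 1174 and 337 CPM in pregnant, 1219, 781 and 418 CPM in lactating and 680, 788 and 601 CPM in post-weaning libraries. It spread more within the pregnant and lactating stages than between stages, and no comparison passed. Slc25a5 held a large part of the summed level of the mitochondrial carrier genes, so its spread enters that sum. Both exchanger genes have near-identical relatives or processed copies in the genome, and how the authors' counting treated shared reads is not given, so their counts are uncertain. Slc25a3, the phosphate carrier gene, averaged 210 ± 24.8 CPM in virgin, 152 ± 9.99 CPM in pregnant, 227 ± 36.3 CPM in lactating and 172 ± 26.3 CPM in post-weaning libraries. Its lactating libraries lay above all pregnant ones (0.58 ± 0.19, adjusted p = 0.131, and 0.59 ± 0.20 without Lactating replicate 3). Slc25a11, the oxoglutarate carrier gene, stayed between 93.7 and 143 CPM throughout.

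In lactating against pregnant libraries 22 of the 32 mitochondrial carrier genes had a negative fitted difference, with a median of -0.46 against -0.14 for all genes tested (-0.51 against -0.25 without Lactating replicate 3), and 5 lay higher and 5 lower without overlap, where 9.5% and 17.1% of all genes did. Among the 10 with a positive difference was Slc25a51, the mitochondrial NAD+ importer gene, with 45, 65.1 and 103 CPM in lactating libraries, against 18.8, 36 and 14.8 CPM in pregnant libraries (1.61 ± 0.41, adjusted p = 0.0528, and 1.20 ± 0.39, adjusted p = 0.117, without Lactating replicate 3). It passed without Pregnant replicate 2, its highest pregnant library (adjusted p = 0.0451), and without Lactating replicate 1, its lowest lactating library (0.039). It also passed under a filter of 5 CPM in 3 libraries (0.0436). Slc25a1, the citrate carrier gene, had 33.3, 37.1 and 33.3 CPM in lactating libraries, against 21.5, 17.8 and 17.4 CPM in pregnant libraries (0.87 ± 0.36, adjusted p = 0.225, and 0.85 ± 0.38 without Lactating replicate 3). The carnitine-acylcarnitine carrier gene Slc25a20, which brings long-chain fatty acids in for oxidation, averaged 50.4 ± 11.6 CPM in virgin, 45 ± 14.7 CPM in pregnant, 39.7 ± 18.2 CPM in lactating and 43.7 ± 6.9 CPM in post-weaning libraries. Slc25a24, an ATP-Mg/phosphate carrier gene, was at 0 in all lactating libraries, against 27.1, 22.4 and 12.1 CPM in virgin libraries. With a floor of 3 counts over the lactating stage, its pooled level there was at least 148-fold lower (edgeR adjusted p = 0.107). The mitochondrial iron importer gene Slc25a37 had 4.16, 0 and 0 CPM in lactating libraries, against 15.7, 12.4 and 12.4 CPM in virgin libraries (edgeR adjusted p = 0.315 with all libraries, 0.0118 without Lactating replicate 1). Leaving out that replicate left only lactating libraries at 0, so the lower p follows from it.

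**Figure D4:**
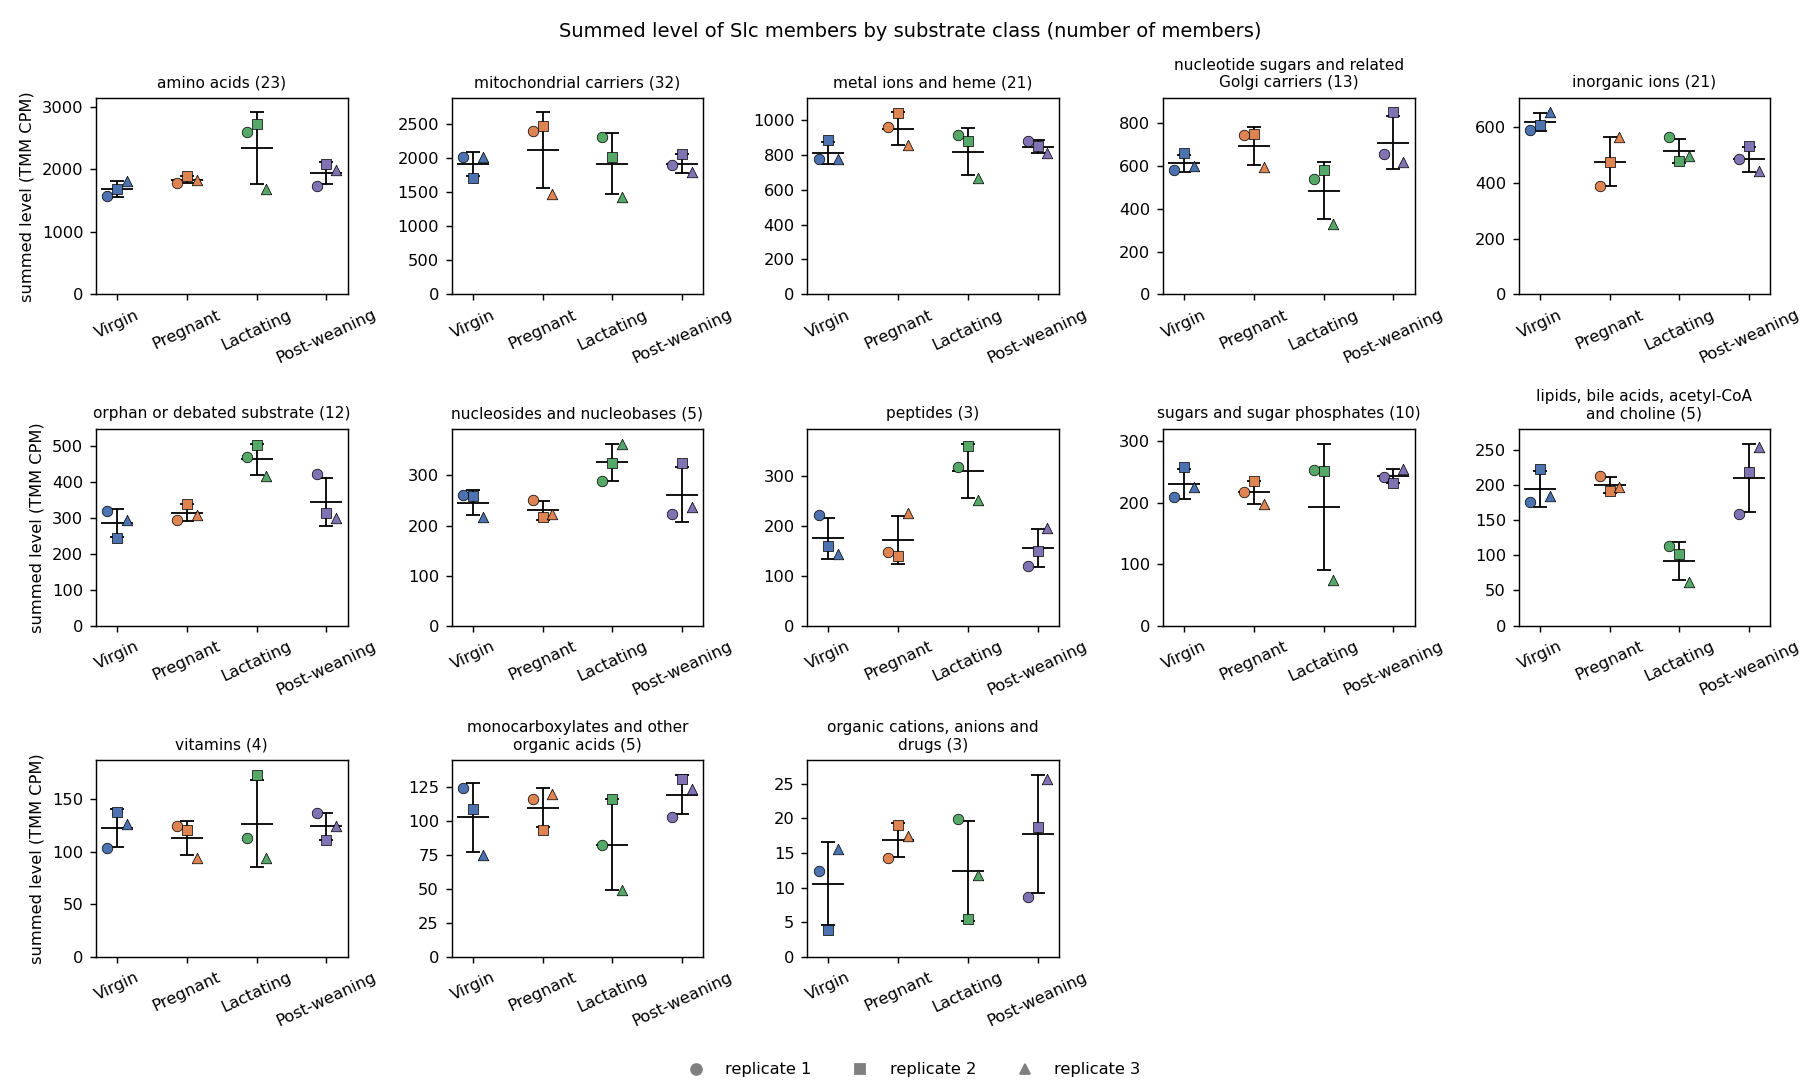
Summed level of the Slc genes of each substrate class in each library, in TMM-scaled CPM, for the 13 classes of transporters, with the number of genes in brackets. Points are libraries, lines and bars the mean and SD of 3. The lipid class is lowest and the peptide class highest in all 3 lactating libraries, the latter through Slc15a3. The amino acid and sugar sums of lactation are pulled apart by replicate 3. The mitochondrial sums of lactation spread as well, and Slc25a5 holds a large part of them.

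The sugar and organic acid classes lack Slc2a1 and Slc16a3, which reached the level but were left out by name. The 10 sugar and sugar phosphate transporter genes summed to 230 ± 24.6 CPM in virgin, 216 ± 19.4 CPM in pregnant, 193 ± 103 CPM in lactating and 243 ± 11.3 CPM in post-weaning libraries, and the lactating sums were 254, 251 and 73.9 CPM. Their median difference in lactating against pregnant libraries was -0.69, and -0.16 without Lactating replicate 3, against -0.14 and -0.25 for all genes tested. Slc37a2, a sugar phosphate exchanger gene of macrophages, averaged 63 ± 15.8 CPM in virgin, 44.1 ± 14.1 CPM in pregnant, 34.7 ± 27 CPM in lactating and 54.6 ± 14.9 CPM in post-weaning libraries. The SWEET-type sugar transporter gene Slc50a1 had 41.2, 69.1 and 0 CPM in lactating libraries, against 35.9 to 65.6 CPM in virgin and pregnant libraries. The glucose transporter gene Slc2a3 reached at most 15.2 CPM, and Slc2a6, a lysosomal family member, had 18.5, 14.5 and 8.7 CPM in pregnant libraries, against 4.48, 0 and 7.97 CPM in virgin libraries. Slc45a4, of a proton-coupled sugar transporter family, had 56, 65.1 and 56.7 CPM in post-weaning libraries, against 19.5 to 32.9 CPM in virgin libraries (1.07 ± 0.34, adjusted p = 0.739). Slc17a5, which releases sialic acid from lysosomes, averaged 17.4 ± 5.34 CPM in virgin, 18.9 ± 6.65 CPM in pregnant, 11.1 ± 10.7 CPM in lactating and 16 ± 4.98 CPM in post-weaning libraries. Among the 5 organic acid transporter genes, the lactate and pyruvate transporter gene Slc16a1 (MCT1) had 30, 32.2 and 39.6 CPM in pregnant libraries, against 18.5, 0 and 13.2 CPM in virgin libraries (1.69 ± 1.57, adjusted p = 0.835). The related Slc16a7 (MCT2) averaged 54.7 ± 19.9 CPM in virgin, 36.2 ± 8.92 CPM in pregnant, 18.9 ± 17 CPM in lactating and 45.6 ± 18.6 CPM in post-weaning libraries, and Slc16a6 stayed between 13.7 and 33.8 CPM. Slc5a8, a sodium-coupled monocarboxylate transporter gene, was the only one of the 161 to pass 5 CPM in 1 stage alone. The rule thus took it in through its post-weaning libraries, which set the direction of its differences, and they are given as a description. It had 15.9, 6.02 and 5.53 CPM in post-weaning libraries and no count in virgin or lactating ones, at least 107-fold and 69.4-fold higher in pooled counts, and the edgeR tests did not pass (adjusted p = 0.674 and 0.145).

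Nucleoside transporter genes were led by Slc29a1 (ENT1) at the cell surface and Slc29a3 (ENT3) in lysosomes. Slc29a1 averaged 55.7 ± 16.5 CPM in virgin, 69.8 ± 3.8 CPM in pregnant, 100 ± 22.7 CPM in lactating and 100 ± 8.93 CPM in post-weaning libraries. All lactating and all post-weaning libraries lay above all virgin ones, and each difference was 0.85 ± 0.26 (adjusted p = 0.127 in lactating and 0.726 in post-weaning against virgin libraries). The lactating difference was 0.97 ± 0.24 without Lactating replicate 3 (adjusted p = 0.0573). Slc29a3 averaged 163 ± 21 CPM in virgin, 137 ± 17.5 CPM in pregnant, 167 ± 29.8 CPM in lactating and 144 ± 49.9 CPM in post-weaning libraries. Slc43a3, a purine nucleobase transporter gene, had 2.2, 0 and 2.42 CPM in post-weaning libraries, against 12.6, 15 and 11.3 CPM in virgin libraries (-3.06 ± 1.29, adjusted p = 0.811).

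The 13 genes for nucleotide sugar and related carriers of the Golgi and endoplasmic reticulum summed to 612 ± 39.8 CPM in virgin, 694 ± 88.5 CPM in pregnant, 483 ± 134 CPM in lactating and 708 ± 123 CPM in post-weaning libraries. In lactating against pregnant libraries 10 of the 13 had a negative fitted difference (median -0.50, against -0.14 for all genes tested, and -0.55 against -0.25 without Lactating replicate 3). Of the 13, 4 were lower without overlap and 0 higher, against 17.1% and 9.5% of all genes. With edgeR 0 passed (3.85% of all genes), 2 had an unadjusted p under 0.05 (18.6%), and DESeq2 called 1 (11.6%). Slc35a5, a Golgi carrier family gene, had 48.7, 30 and 8.34 CPM in lactating libraries, against 122, 124 and 64.2 CPM in pregnant libraries (-1.84 ± 0.54, adjusted p = 0.0883, and -1.44 ± 0.40, adjusted p = 0.0691, without Lactating replicate 3). It passed without Lactating replicate 1, its highest lactating library (-2.50 ± 0.57, adjusted p = 0.0375), and under total count scaling (adjusted p = 0.0239). Slc35c2, a fucose-related Golgi gene, had 132, 148 and 112 CPM in post-weaning libraries, against 82.1, 76.9 and 79.4 CPM in lactating libraries (0.72 ± 0.21, adjusted p = 0.135, and 0.78 ± 0.23 without Lactating replicate 3). Slc35b1, which exchanges ATP into the endoplasmic reticulum, had 59.8, 60.5 and 15.2 CPM in lactating libraries, below all pregnant libraries at 73.1 to 94.6 CPM (adjusted p = 0.274). The CMP-sialic acid transporter gene Slc35a1 averaged 38.2 ± 6.75 CPM in virgin, 32.9 ± 10.5 CPM in pregnant, 23.8 ± 12.5 CPM in lactating and 27.4 ± 8.95 CPM in post-weaning libraries.

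The 5 genes of the lipid, acetyl-CoA and choline class had the lowest lactating sums relative to the other stages. They summed to 113, 102 and 62 CPM in lactating libraries, against 158 to 253 CPM in the 9 others, and the lactating mean was 107 CPM without replicate 3. In lactating against pregnant libraries edgeR called 0 of the 5 (3.85% of all genes), 2 had an unadjusted p under 0.05 (18.6%), and DESeq2 called 2 (11.6%). The choline transporter gene Slc44a2 had 60.6, 42.6 and 39.7 CPM in lactating libraries, against 103, 88.3 and 121 CPM in pregnant libraries (-1.13 ± 0.34, adjusted p = 0.1, and -1.06 ± 0.39 without Lactating replicate 3), and passed under total count scaling (-1.44 ± 0.35, adjusted p = 0.0403). Slc44a1, the other choline transporter gene, had 13.3, 0 and 0 CPM in lactating libraries, against 13.2, 16.5 and 5.71 CPM in pregnant and 18.2, 35.7 and 11 CPM in virgin libraries. With edgeR it passed only without Lactating replicate 1 (adjusted p = 0.00739 against pregnant and 0.00983 against virgin libraries). That left only lactating libraries at 0, so the pass follows from the library left out. Slc33a1, which brings acetyl-CoA into the endoplasmic reticulum, had 0, 15.7 and 0.79 CPM in lactating libraries, below all of the 18.4 to 54.3 CPM elsewhere. It passed with edgeR only without Lactating replicate 2, its highest lactating library (adjusted p = 0.00547 against pregnant and 0.013 against virgin libraries). That pass likewise follows from the library left out. The fatty acid transport gene Slc27a1 averaged 36.8 ± 8.25 CPM in virgin, 31.8 ± 10.3 CPM in pregnant, 24.2 ± 15.1 CPM in lactating and 50.7 ± 12.8 CPM in post-weaning libraries.

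**Figure D5:**
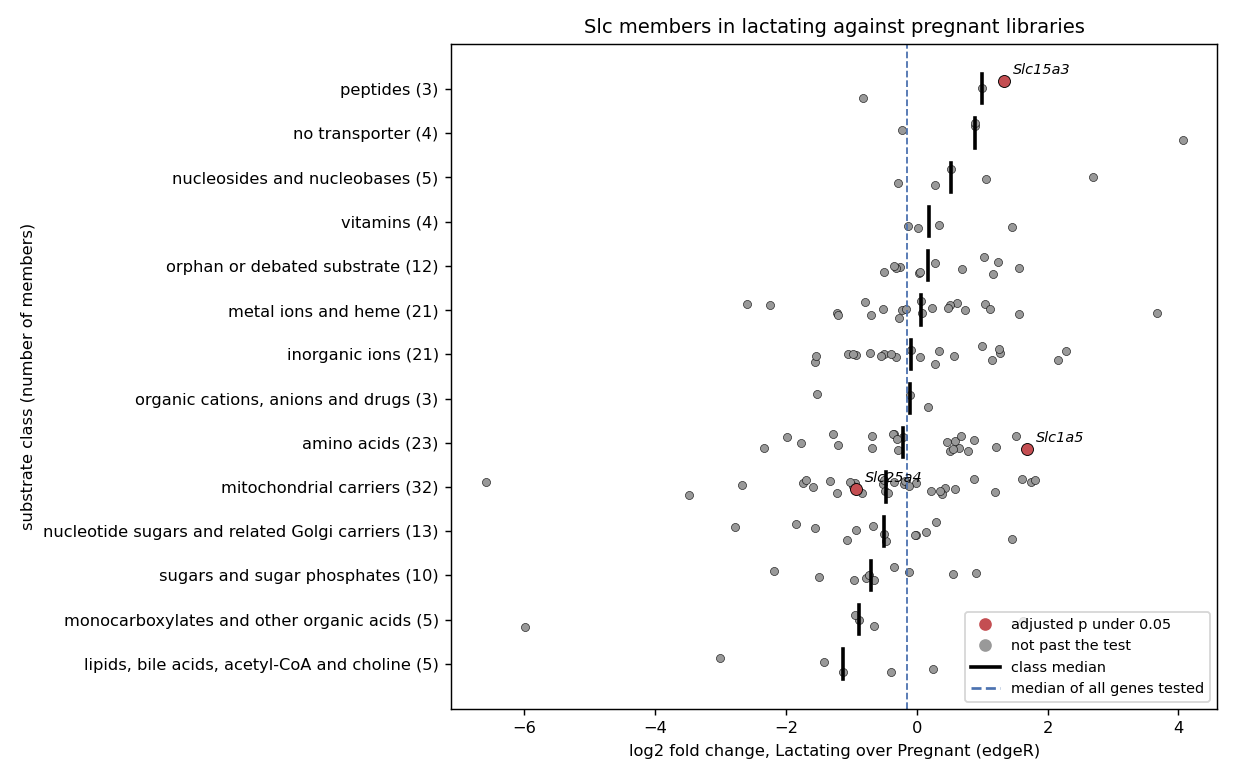
Log2 fold change of each Slc gene in lactating over pregnant libraries by substrate class, from the edgeR fit to 12 libraries. Red points passed the test, black bars are class medians and the dashed line is the median of all genes tested, -0.14. Class medians run from -1.13 for lipids to 1.00 for peptides (-0.85 and 0.77 without Lactating replicate 3), and points far to the left rest on libraries at or near 0.

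The 21 metal and heme transporter genes summed to 810 ± 61.3 CPM in virgin, 948 ± 92.2 CPM in pregnant, 817 ± 134 CPM in lactating and 844 ± 36.3 CPM in post-weaning libraries. Of the 21, edgeR called 0 in the 6 comparisons (0 to 3.85% of all genes). There 0 to 3 had an unadjusted p under 0.05 (6.04 to 18.6% of all genes), and DESeq2 called at most 1 (0.986 to 11.6%). Slc39a7, which releases zinc from the endoplasmic reticulum, had 104, 156 and 197 CPM in lactating libraries, against 99.7, 89.9 and 85.2 CPM in pregnant libraries (0.73 ± 0.29, adjusted p = 0.201, and 0.45 ± 0.28 without Lactating replicate 3). The heme exporter gene of the phagolysosome, Slc48a1, had 38.4, 31.7 and 20.1 CPM in pregnant libraries, below the 55.9, 47.3 and 73.2 CPM of virgin libraries (-0.97 ± 0.34, adjusted p = 0.27). Slc31a2, a copper transporter family gene, had 75.6, 86.5 and 79.2 CPM in pregnant libraries, above the 57.2, 44.8 and 48.3 CPM of virgin libraries (0.68 ± 0.38, adjusted p = 0.54). The zinc importer gene Slc39a6 had 92, 113 and 58.9 CPM in pregnant libraries, against 47.1, 11.2 and 26.6 CPM in virgin libraries (1.64 ± 0.54, adjusted p = 0.23). Slc39a10 had 16.6, 0.183 and 0.263 CPM in lactating libraries, against 44.5, 31.1 and 18 CPM in virgin libraries. It passed with edgeR only without Lactating replicate 1, its highest lactating library (adjusted p = 0.0186), so the pass follows from the library left out. Slc39a4, another zinc importer gene, had 5.48 CPM in Lactating replicate 2 and no count in the other lactating libraries, against 11, 11.5 and 10.4 CPM in pregnant libraries. With edgeR it passed only without Lactating replicate 2 (adjusted p = 0.012 in lactating against pregnant libraries). That left only lactating libraries at 0, so this pass too follows from the library left out.

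The 21 inorganic ion transporter genes summed to 617 ± 31.9 CPM in virgin, 476 ± 86.8 CPM in pregnant, 514 ± 43.8 CPM in lactating and 486 ± 45 CPM in post-weaning libraries, with every virgin library (590, 609 and 652 CPM) above every other (390 to 563 CPM). That order rests on Slc12a2, which alone held 199 CPM in Virgin replicate 3. In pregnant against virgin libraries the class median was -0.13, against 0.03 for all genes tested. Without overlap 0 of the 21 lay higher and 1 lower, against 13.6% and 10.7% of all genes. EdgeR called 0 of the 21 in the 6 comparisons (0 to 3.85% of all genes). There 0 to 4 had an unadjusted p under 0.05 (6.04 to 18.6% of all genes), and DESeq2 called at most 1 (0.986 to 11.6%). The sodium-calcium exchanger gene Slc8a1 had 58.4, 40.6 and 31.2 CPM in lactating libraries, against 131, 75.5 and 79.5 CPM in virgin libraries (-1.14 ± 0.37, adjusted p = 0.151, and -0.99 ± 0.40 without Lactating replicate 3). The bicarbonate importer gene Slc4a7, which macrophage phagosomes use in acidification, had 29.7, 30.5 and 33.5 CPM in pregnant libraries, against 69.1, 45.1 and 47.3 CPM in virgin libraries (-0.78 ± 0.40, adjusted p = 0.496). Slc12a2, the sodium-potassium-chloride cotransporter gene, shows how 1 library can make a mean: it had 16.8, 0 and 199 CPM in virgin libraries and at most 35.9 CPM elsewhere. The endosomal proton exchanger gene Slc9a9 had 134, 117 and 20.1 CPM in lactating libraries, against 88.6, 106 and 62.9 CPM in virgin libraries. The phosphate importer gene Slc20a1 averaged 60.5 ± 1.45 CPM in virgin, 62 ± 38.6 CPM in pregnant, 37.9 ± 32 CPM in lactating and 48.6 ± 8.92 CPM in post-weaning libraries.

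Of the 4 vitamin transporter genes, Slc23a2, for ascorbate, averaged 71.4 ± 5.21 CPM in virgin, 65.1 ± 17.6 CPM in pregnant, 65.8 ± 51.1 CPM in lactating and 70.9 ± 16.7 CPM in post-weaning libraries. The proton-coupled folate transporter gene Slc46a1 averaged 27 ± 7.19 CPM in virgin, 27.4 ± 3 CPM in pregnant, 24.9 ± 6.01 CPM in lactating and 37.3 ± 9.71 CPM in post-weaning libraries. The 3 organic ion transporter genes reached at most 13 CPM. The carnitine importer gene Slc22a5 had 6, 5.62 and 9.98 CPM in pregnant libraries, against 3.33, 3.01 and 5.12 CPM in virgin libraries, and Slc22a18 reached at most 10.2 CPM. Among the 12 genes whose substrate is unknown or debated, Slc49a4, of the lysosomal membrane, had 211, 217 and 115 CPM in lactating libraries, above the 104, 45.7 and 58.7 CPM of virgin libraries (1.38 ± 0.38, adjusted p = 0.0958), and passed without Lactating replicate 3 (1.57 ± 0.36, adjusted p = 0.0362). Slc35f5 averaged 87.4 ± 30.9 CPM in virgin, 72.2 ± 7.82 CPM in pregnant, 87.3 ± 25.1 CPM in lactating and 91.7 ± 16.7 CPM in post-weaning libraries. Slc35f6 had 78.3, 81.3 and 72.5 CPM in lactating libraries, above all others at 19.2 to 51.1 CPM, and passed with edgeR only without Virgin replicate 2 (1.68 ± 0.31 against virgin, adjusted p = 0.0306, and 1.23 ± 0.33, adjusted p = 0.0969, with all libraries).

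Of the 161 genes, 4 carry an Slc symbol and encode no transporter. Slc9a3r1 encodes NHERF1, a scaffold that binds ion transporters and receptors under the plasma membrane. It had 142, 126 and 79.3 CPM in lactating and 113, 122 and 124 CPM in post-weaning libraries, all above the 67.4, 62.3 and 56.5 CPM of pregnant libraries. The differences from pregnant libraries were 0.90 ± 0.26 (adjusted p = 0.0837) and 0.95 ± 0.26 (adjusted p = 0.166), and both passed without Lactating replicate 3 (1.06 ± 0.23, adjusted p = 0.0204, and 0.96 ± 0.21, adjusted p = 0.0365). Slc7a6os had 39, 46.4 and 45.6 CPM in lactating libraries, against 24.1, 26.6 and 19.8 CPM in pregnant libraries (0.89 ± 0.33, adjusted p = 0.169, and 0.81 ± 0.34 without Lactating replicate 3).

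Counted over all 161 genes without a test, the lactating mean was the lowest of the 4 stages for 65 genes (40.4%, against 35.1% of all genes tested) and the highest for 53 (32.9%, against 28.3%). Without Lactating replicate 3 it was the lowest for 42 (26.1%, against 36.1%) and the highest for 56 (34.8%, against 25.7%), so the share of genes at the lower end rests on that library. Lactating replicate 3 was the highest library for 29 of the 161 genes, against 6 to 24 for the other libraries. It was the lowest for 71, against 1 to 40, where ties count for every library that shares them. These counts were not made over all genes. In pregnant against virgin libraries the 2 stages did not overlap for 37 Slc genes (23%, against 24.2% of all genes tested), 26 higher and 11 lower, where 13.6% and 10.7% of all genes did so. In lactating against virgin libraries 29 did not overlap (18%, against 17.3%), 17 higher and 12 lower (8% and 9.34% of all genes). In post-weaning against virgin libraries 29 did not overlap (18%, against 15.4%), 20 higher and 9 lower (8.83% and 6.55% of all genes). In lactating against pregnant libraries the count was 47 (29.2%, against 26.6%), 24 higher and 23 lower (9.5% and 17.1% of all genes). In post-weaning against lactating libraries it was 33 (20.5%, against 21.6%), 15 higher and 18 lower (12.8% and 8.76% of all genes). In post-weaning against pregnant libraries it was 37 (23%, against 27.3%), 19 higher and 18 lower (14% and 13.3% of all genes). Taken in both directions together, these shares were close to those of all genes. By direction they were less close, as in lactating against pregnant libraries, and this was not tested.

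Some genes were high mainly in Lactating replicate 3. Slc28a3, a concentrative nucleoside transporter gene, had 84.2 CPM there and at most 5.80 CPM elsewhere, with no count in Lactating replicates 1 and 2 or in any virgin library. Slc43a3 had 67.6 CPM there against at most 15 CPM elsewhere, the phosphate importer gene Slc20a2 had 45 against 11.3 CPM, the zinc and manganese importer gene Slc39a8 had 54.5 against 21.4 CPM, and the potassium-chloride cotransporter gene Slc12a7 had 109 against 51.7 CPM. The milk-secreting epithelium markers took 6.79% of the counts in the same library, and their part in these values was not tested. Among Slc genes under the level of the rule, Slc9a4 behaved likewise, with 1.56, 12.1 and 70.4 CPM in lactating libraries and no count in virgin libraries, and passed in lactating against virgin libraries with all libraries (edgeR adjusted p = 0.0283) but not without Lactating replicate 3 (0.051).

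Neighbouring pathways were read from lists of other genes. Of 27 tested genes of the ATF4 amino acid response, which transcribes many amino acid transporter genes when amino acids are short, 0 rose and 1 fell in lactating against virgin libraries (3.7%, against 1.94% of all genes), and 5 had an unadjusted p under 0.05 (18.5%, against 16.8%). The median of the 27 was 0.60 there, against -0.06 for all genes, and 0.42 in lactating against pregnant libraries, against -0.14. These medians were 0.0047 and 0.0090 without Lactating replicate 3, where 29 of the listed genes were tested, against -0.15 and -0.25 for all genes. The one that fell, Sesn2, a leucine sensor that restrains mTORC1, averaged 0.173 ± 0.3 CPM in lactating, against 26 ± 6.01 CPM in virgin and 21.5 ± 5.54 CPM in pregnant libraries, and 24.3 ± 8.75 CPM after weaning (edgeR adjusted p = 0.00505 against virgin and 0.00331 against pregnant libraries). In pregnant against virgin libraries Atf3 and Cebpb fell (edgeR adjusted p = 0.0354 and 0.0471), 7.41% of the 27 against 1.32% of all genes. In lactating against pregnant libraries Cebpb rose (1.71 ± 0.24, edgeR adjusted p = 0.0026), which with Sesn2 made 7.41%, against 3.85% of all genes. In post-weaning against lactating libraries Sesn2 rose (edgeR adjusted p = 0.00944), 3.7% of the 27 against 0.923% of all genes. In post-weaning against pregnant libraries Cebpb rose (edgeR adjusted p = 0.0184), 3.7% against 0.718%. Of 28 genes of lysosomal amino acid sensing by mTORC1, edgeR called 0 in all 6 comparisons (0 to 3.85% of all genes). There 1 to 8 had an unadjusted p under 0.05 (3.57 to 28.6%, against 6.04 to 18.6% of all genes). DESeq2 called at most 2 (0.986 to 11.6% of all genes). Of 17 mitochondrial carrier and outer membrane pore genes without an Slc symbol, Mtch1 fell in lactating against pregnant libraries (-1.53 ± 0.32, edgeR adjusted p = 0.0223). That is 5.88% of the 17, against 3.85% of all genes.

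Of 31 other carrier genes without an Slc symbol, only Slco2b1, an organic anion transporter gene, passed edgeR's test. It averaged 180 ± 33.5 CPM in virgin, 56.7 ± 3.62 CPM in pregnant, 92.8 ± 11.7 CPM in lactating and 122 ± 17.6 CPM in post-weaning libraries. It fell in pregnant against virgin (-1.66 ± 0.21, adjusted p = 0.00681) and in lactating against virgin libraries (-0.95 ± 0.21, adjusted p = 0.0436), and rose in post-weaning against pregnant libraries (1.11 ± 0.21, adjusted p = 0.0365). Each call is 3.23% of the 31, against 1.32%, 1.94% and 0.718% of all genes in these comparisons. Of 27 ABC transporter genes, which use ATP directly, edgeR called 7.41% in lactating against virgin (1.94% of all genes) and 3.7% in lactating against pregnant libraries (3.85%). The cholesterol exporter gene Abcg1 fell in lactating against virgin libraries (15.8 ± 6.59 CPM against 63.1 ± 13.2 CPM, edgeR adjusted p = 0.0389). The peroxisomal Abcd2 also fell, with no count in lactating libraries against 19.2 ± 14.7 CPM in virgin (adjusted p = 0.0382) and 11.2 ± 3.46 CPM in pregnant libraries (adjusted p = 0.0313), and missed the threshold without Lactating replicate 3 (0.0525 and 0.0543). The calls of Sesn2, Cebpb, Mtch1, Slco2b1 and Abcg1 that involve lactating libraries held without that library (adjusted p at most 0.0338).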

How the data were processed

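RNA from sorted ductal macrophages was amplified with SMART-Seq v4 and sequenced in 1 run, per the labels' protocols. The files deposited by the authors hold gene-level counts that are not normalized, made with featureCounts on mm10 per the submitters' processing notes. The aligner, the strand setting and the handling of reads shared between genes are not given in the labels or file headers. Each single-library file held the same counts as the series table. Gene IDs matched the RefSeq gene table for 93% of rows, and unmatched rows held at most 0.825% of a library's counts. Of the 161 genes, 63 overlap another annotated gene. PCR copies carry no molecular identifiers.

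Counts were tested with edgeR 4.0.16 in R 4.3.3 (filterByExpr by stage, TMM, robust quasi-likelihood fit with 1 mean per stage over 12 libraries, common biological coefficient of variation 0.856, Benjamini-Hochberg adjustment over 12672 genes). The standard error is the log2 fold change over the square root of F. Levels are TMM-scaled CPM, except in the rule for the 161 genes, which used unscaled library totals. The fit was also run on simulated counts with known changes and missed many of them, so a difference that did not pass may still be real. Replicates of a stage differed by more than sampling noise (chi-square per degree of freedom 29.5 to 312), so none was counted as a copy. The labels call the replicates biological without naming animals, so p-values measure the spread between these libraries, which may in part be technical.

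The 161 genes, the substrate classes and the other lists were chosen with earlier results of these data known. Named genes were those called in a pairwise comparison, the 2 with the highest CPM per kb in each class of at least 3 genes, and a list of transporters of macrophage interest, of which Slc2a9 and Slc34a2 were not among the 161. The genes named beyond these were chosen after their values were seen. Class membership of Slc7a6os and Slc10a3 was corrected after the values were seen. Alternatives were DESeq2 1.42.0, RLE and total count scaling, other filters, a replicate block, fits of 6 libraries, and leaving out each library.

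Same-numbered replicates of different stages did not deviate together, so the numbers were not taken to pair them.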

Additional observations from a re-analysis of the deposited data

How the results depend on the processing

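Of the 10 differences of named Slc genes that passed with edgeR, 0 changed direction under an alternative, while 99 of the 284 that did not pass changed sign under at least 1 (adjusted p at least 0.441 with all libraries). The median of the 161 genes in lactating against virgin libraries was 0.03 with TMM and -0.27 under total count scaling, where all genes moved likewise. With DESeq2 in place of edgeR the Slc genes called numbered 3 in pregnant against virgin, 13 in lactating against virgin, 2 in post-weaning against virgin, 17 in lactating against pregnant, 12 in post-weaning against lactating and 4 in post-weaning against pregnant libraries, and 21 for any difference, against 1, 2, 0, 3, 3, 1 and 3 with edgeR. DESeq2 also called more of all genes (5.18, 9.26, 0.986, 11.6, 7.25, 3.96 and 11.5%). RLE factors and no filter on low counts gave the edgeR counts, and total count scaling lowered post-weaning against lactating to 1. Fits of only the 6 libraries compared called 0 in lactating against virgin (0% of all genes) and 0 in lactating against pregnant (1.35%). They called 0 in post-weaning against lactating (0.027%) and 4 in post-weaning against pregnant libraries (5.02%, against 0.718% with all 12 libraries). In pregnant against virgin libraries they called 1 (2%, against 1.32%). These fits hold fewer samples, and the part of that in the counts was not tested. Leaving out each library in turn gave 0 to 2 in pregnant against virgin (0.297 to 3.26% of all genes), 1 to 7 in lactating against virgin (0.826 to 3.1%), 0 in post-weaning against virgin (0 to 0.0745%), 0 to 7 in lactating against pregnant (1.44 to 5.13%), 1 to 5 in post-weaning against lactating (0.194 to 1.8%), 0 to 2 in post-weaning against pregnant (0.00744 to 2.29%) and 2 to 6 for any difference (1.27 to 5.76%).

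With the replicate number as a block, post-weaning against pregnant called 0 (0.276% of all genes), lactating against pregnant 2 (2.73%), post-weaning against lactating 2 (0.331%), and the other counts stayed at 1, 2, 0 and 3. In lactating against pregnant libraries Slc15a3 (adjusted p = 0.0568) and Slc25a4 (0.0656) were lost and Slc35a5 (0.035) gained, Slc15a3 (0.0894) was lost in post-weaning against lactating and Slc38a1 (0.0636) in post-weaning against pregnant libraries. Of 18 same-numbered pairs, 0 correlated above 0.1 (-0.0683 to 0.0726), and 2 libraries correlated best with their own number, so the block rests on a number only.

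Summed over the 23 amino acid transporter genes, the lactating mean was 2343 CPM with TMM and 2025 CPM under total count scaling. Depth and the spread of 3 libraries limit genes under about 10 CPM, where single libraries at 0 set the fitted values. Libraries at or near 0 also set fitted values of genes with higher levels in other libraries. For Slc44a1 the log2 difference in lactating against virgin libraries ran from -10.95 to -1.72 when each library was left out in turn.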
